A study of Mus musculus with 15 samples.

Results

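RNA-sequencing (RNA-seq) libraries from GL261 gliomas that had received 200 µg per dose of B20.4.1.1, an antibody to VEGF-A, were set against libraries from healthy mouse brain, 3 libraries in each group. These 6 libraries, of 15 in the series, were chosen by their titles. Untreated GL261 gliomas (3 libraries) served to tell which tumor features lay nearer to brain, or farther from it, at this dose. The 6 libraries from tumors given 50 or 100 µg fixed on which side of brain a gene lay. The treated tumors grew in C57BL/6 mice that received the antibody every 3 days from day 10 after implantation until the endpoint. Untreated tumors were titled as without treatment, at a dose of 0 µg, and the healthy brain came from C57BL/6 mice and bore no tumor. Tumors were taken after perfusion with PBS, which washes out blood, and frozen. The labels give no age or sex. GL261 is a single mouse glioma line of C57BL/6 origin implanted into mice of that strain. All tumor tissue here was therefore 1 cell line together with the host cells around and within it.

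VEGF-A is secreted by hypoxic and growing tissue and acts on endothelial cells through the receptors KDR and FLT1, with neuropilins as co-receptors, so that new vessels sprout. Glioblastoma is rich in VEGF-A, and antibodies that bind it are used to prune tumor vessels. B20.4.1.1 binds both mouse and human VEGF-A, so it reaches the ligand made by host and tumor cells alike.

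Each library was deposited as its own transcript assembly with abundances in FPKM, fragments per kilobase of transcript scaled to the library's mapped fragments. Gene values below are FPKM summed over a gene's transcripts, each weighted by the share of the gene it covered. Differences are of group means of log2(value + 1), given with their standard error (SE), and understate the change of low genes. A gene was called where limma's Benjamini-Hochberg adjusted p was under 0.05. The labels do not say whether the samples of a group came from separate animals beyond calling them individual, so p-values here cover sample-to-sample spread that may be technical. The assemblies differed between groups. The share of 9300 protein-coding genes whose longest transcript covered under 50% of the assembled exonic bases was 0.198% to 0.264% in the 200 µg tumors, 0.993% to 1.29% in untreated tumors and 0.506% to 6.75% in brain. Read coverage per unit of FPKM, which scales with depth, was 9.45 to 13.2 in the 200 µg tumors, 6.94 to 7.37 in untreated tumors and 6.10 to 22.1 in brain. The agent tag disagreed with the title for replicate 3 of every tumor group, and titles were followed. The library titled 100 µg replicate 3 was tagged as 200 µg. By the tag, untreated replicate 3 fell among the 50 µg tumors and 50 µg replicate 3 among the 100 µg tumors. Grouping by tag left out 200 µg replicate 3. Of 16402 genes tested, 61.7% were called between 200 µg tumors and brain, 34.1% higher and 27.6% lower in the tumors (5594 and 4519 genes). The median difference over all tested genes was 0.15. Median-of-ratios scaling moved that median to -0.06, and 47.1% of calls were then higher, against 55.3% without it. Plain FPKM sums gave a median of -0.43, with 41.1% of 5298 calls higher. Between untreated tumors and brain, 60.7% of 16340 genes were called, 32.7% higher and 28% lower in the tumors.

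The neural genes of healthy brain were nearly absent from 200 µg tumors. All 24 genes of a neuron and synapse list were lower than in brain, with a median difference of -6.03, and all 24 were lower in untreated tumors too, with a median of -5.77. Snap25, a core protein of synaptic vesicle fusion, had 0.618, 0.598 and 1.12 FPKM in 200 µg tumors, 5.34, 2.90 and 2.88 FPKM in untreated tumors and 1040, 498 and 898 FPKM in brain. Every tumor value lay far under every brain value, and the 200 µg libraries lay under the untreated ones. The 200 µg minus brain difference of Snap25 was -8.78 ± 0.310 (SE; adjusted p = 8.62e-06), and the 200 µg minus untreated difference of -1.38 was not called (adjusted p = 0.136). Camk2a, a calcium-dependent kinase of excitatory synapses, had 0.529, 0.114 and 0.508 FPKM in 200 µg tumors against 404, 386 and 374 FPKM in brain, a difference of -8.15 ± 0.177. Slc17a7, the vesicular glutamate transporter of cortical neurons, and Stmn3, a neuronal microtubule regulator, differed by -8.28 each. Vsnl1, Sst and Sult4a1 were listed at 0 in every 200 µg library. In such bulk tissue, fewer cells of a type and less RNA per cell cannot be told apart.

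Glial genes were lower as well. Of 14 oligodendrocyte and myelin genes, 13 were lower in 200 µg tumors than in brain and 0 were higher, with a median of -3.16 (-2.95 in untreated tumors), and plain FPKM sums called 8 lower. Of 13 astrocyte genes, 10 were lower and 0 higher, with a median of -2.90 (-2.85 in untreated tumors). Slc1a2, the main astrocytic glutamate transporter, had 0.389, 0.257 and 0.295 FPKM in 200 µg tumors against 143, 111 and 89.2 FPKM in brain, a difference of -6.43 ± 0.205 (adjusted p = 6.87e-06). Gjb6, an astrocytic gap junction protein, was listed at 0 in all 200 µg and all untreated libraries and had 21.9, 15.6 and 22.1 FPKM in brain. The related glutamate transporter Slc1a3 did not follow this pattern. It had 97, 68.5 and 61.1 FPKM in 200 µg tumors, 40.4, 27.9 and 40.4 FPKM in untreated tumors and 73.9, 77.0 and 92.7 FPKM in brain. Its 200 µg values overlapped those of brain and lay above every untreated value. The 200 µg minus untreated difference was 1.03 ± 0.218 (adjusted p = 0.0380, and up to 0.145 with a tumor library left out, 200 µg replicate 1). Oligodendrocyte precursor genes split, with 6 of 12 higher and 4 lower than in brain, where 34.1% and 27.6% of all genes were. Olig2 and Sox10, transcription factors of that lineage, were higher by 2.65 and 3.30, and Bcan, a proteoglycan of the brain matrix, was lower by -2.31.

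**Figure D1:**
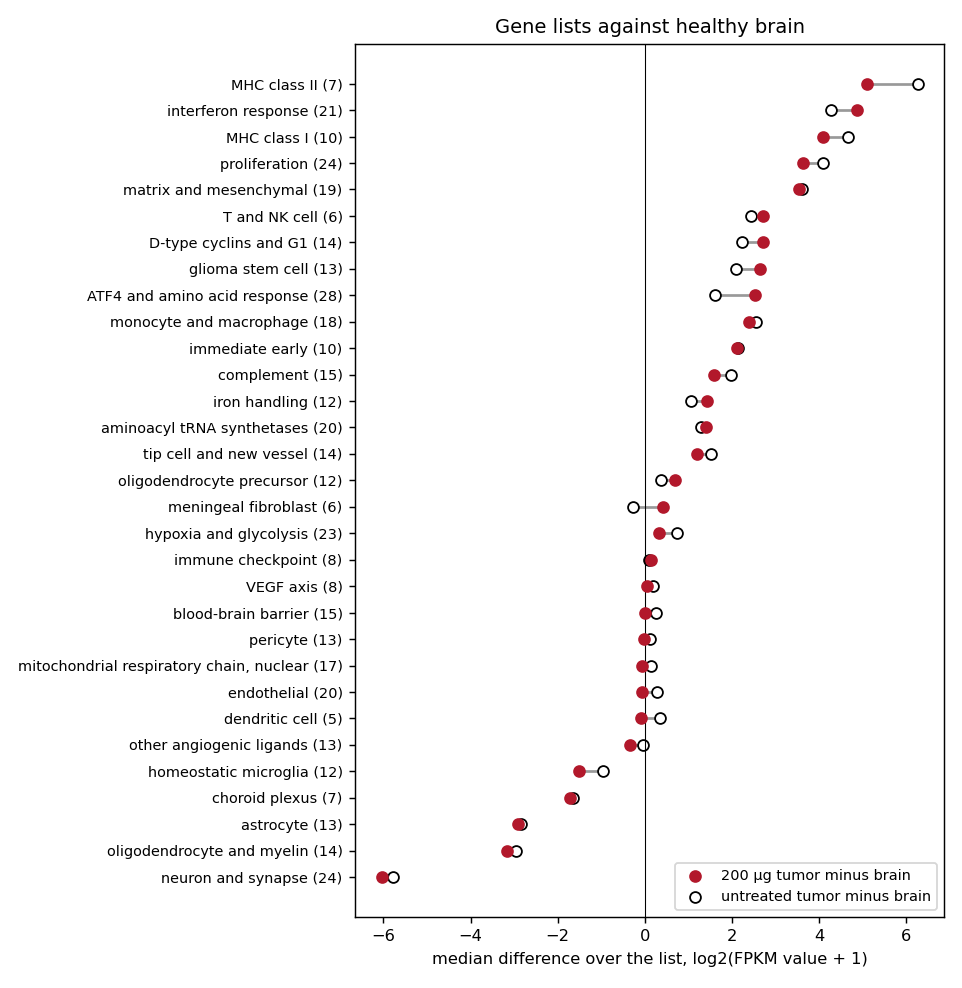
Median difference from healthy brain of each gene list with 5 or more genes tested in both comparisons, on the log2(FPKM value + 1) scale (31 lists; number of genes in brackets). Filled points are 200 µg tumors minus brain and open points are untreated tumors minus brain, both against the same 3 brain libraries; MHC class II genes lay at 5.11 at 200 µg and 6.27 untreated, and neuron and synapse genes lay at -6.03 and -5.77.

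Interferon response and antigen presentation genes stood far above brain. All 21 interferon response genes, all 10 MHC class I antigen presentation genes and 6 of 7 MHC class II genes were higher in 200 µg tumors than in brain, with medians of 4.87, 4.09 and 5.11. Most MHC class I genes have near copies or shared transcripts, so their values are uncertain. In untreated tumors the medians over the same genes were 4.27, 4.66 and 6.27. Igtp, an interferon-induced GTPase, had 324, 397 and 204 FPKM in 200 µg tumors, 253, 236 and 251 FPKM in untreated tumors and 5.08, 2.21 and 3.41 FPKM in brain. The 200 µg and untreated values of Igtp overlapped, and both groups exceeded brain in every library. Of 19 monocyte and macrophage genes, 16 were higher and 1 lower than in brain. Gpnmb, a glycoprotein of macrophages and melanocytes, had 235.9, 255.5 and 636.8 FPKM in 200 µg tumors, 336, 608 and 212 FPKM in untreated tumors and 2.16, 1.80 and 1.99 FPKM in brain, and its 200 µg minus brain difference of 6.83 ± 0.394 was the largest upward difference among the genes named by size. Homeostatic microglia genes went the other way, with 10 of 12 lower and 1 higher than in brain. Their median was -1.51 at 200 µg and -0.95 untreated, and plain FPKM sums called 5 lower and 0 higher. P2ry12, the purinergic receptor of resting microglia, had 1.76, 1.90 and 1.28 FPKM in 200 µg tumors, 1.87, 1.84 and 1.47 FPKM in untreated tumors and 12.3, 12 and 14.0 FPKM in brain. The exception was Olfml3, a secreted matrix protein of microglia, which was higher at 1.75. Other immune lists were mixed. Of 8 immune checkpoint genes 3 were higher and 1 lower, with a median of 0.15. Of 5 dendritic cell genes 2 were higher and 1 lower, with a median of -0.09. These counts compare with 34.1% higher and 27.6% lower over all genes. The tested gene of the B cell list and that of the neutrophil list were lower, by -2.96 and -0.57. The neutrophil call did not hold with every library left out in turn. That list summed to 0.780 to 6.18 FPKM in 200 µg tumors and 1.29 to 1.69 FPKM in brain, which overlapped. The B cell list summed to 2.71 to 3.62 FPKM in 200 µg tumors and 9.51 to 15.6 FPKM in brain. Of 6 T and NK cell genes that passed the filter on low values, 4 were higher than in brain. Cd3g, a chain of the T cell receptor complex, had 11.7, 12.3 and 8.35 FPKM in 200 µg tumors and 4.25, 6.73 and 4.94 FPKM in untreated tumors, and was listed at 0 in brain. The 200 µg values of Cd3g did not overlap the untreated ones, yet that difference was not called (0.91 ± 0.228, adjusted p = 0.0615). The list as a whole was split. Of 8 T and NK cell genes tested between the tumor groups, 0 were called, where 2.83% of all genes were. Their estimates were positive in 5 and negative in 3, with a median of 0.07. The list summed to 38.9 to 79.0 FPKM at 200 µg and 44.4 to 75.2 FPKM untreated, which overlapped.

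All 24 proliferation genes were higher at 200 µg, with a median of 3.64, against 4.10 in untreated tumors. Top2a, the topoisomerase of dividing cells, had 127, 120 and 51.9 FPKM in 200 µg tumors, 109, 58.5 and 74.7 FPKM in untreated tumors and 0.404, 0 and 0.507 FPKM in brain. Of 24 proliferation genes, 0 were called between 200 µg and untreated tumors, where 2.83% of all genes were. Of their estimates 19 were negative, with a median of -0.26. Of 19 matrix and mesenchymal genes, 17 were higher and 1 lower than in brain (11 and 0 with plain FPKM sums). Vim, the intermediate filament of mesenchymal cells, had 1931, 1302 and 1651 FPKM in 200 µg tumors and 14.7, 14.5 and 19.1 FPKM in brain, a difference of 6.57 ± 0.209 (adjusted p = 6.87e-06). Its untreated values of 1556, 1444 and 1075 FPKM overlapped those at 200 µg. Anxa1, an annexin that limits inflammation, and Moxd1, a monooxygenase-like protein, were higher than in brain by 6.82 and 6.70. Of 13 glioma stem cell genes, 8 were higher and 2 lower than in brain, and 4 estimates were negative. The counts of these lists against brain compare with 34.1% higher and 27.6% lower over all genes. Sox2, a stem cell factor, had 177, 192 and 128 FPKM in 200 µg tumors, 137, 168 and 60.1 FPKM in untreated tumors and 30.1, 24.6 and 19.2 FPKM in brain.

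Of 20 endothelial genes, 3 were higher and 4 lower than in brain at 200 µg, and 13 were not called, where 61.7% of all genes were called. Their median was -0.07, against 0.29 in untreated tumors. The count changed to 3 higher and 2 lower without brain replicate 1, and to 2 higher and 2 lower without brain replicate 2. It was 2 higher and 6 lower under median-of-ratios scaling and 0 higher and 2 lower with plain FPKM sums. Pecam1, an adhesion molecule of endothelial junctions, had 4.93, 5.41 and 2.31 FPKM in 200 µg tumors, 5.69, 3.63 and 2.94 FPKM in untreated tumors and 3.87, 2.80 and 4.06 FPKM in brain, and the 3 groups overlapped. The summed level of the endothelial list was 64.5 to 124 FPKM in 200 µg tumors, 111 to 173 FPKM in untreated tumors and 90.1 to 148 FPKM in brain. Of 14 tip cell and new vessel genes, 7 were higher than in brain and 2 lower, a share near that of all genes, with a median of 1.20, against 1.52 in untreated tumors. Leaving out 200 µg replicate 1 or replicate 2 left 4 of these genes higher, and plain FPKM sums left 0 higher and 1 lower. Of the 13 tip cell genes tested between the tumor groups, 0 were called, where 2.83% of all genes were, and 12 had negative estimates. Hspg2, a basement membrane proteoglycan, had 14.4, 13.4 and 24.9 FPKM in 200 µg tumors, 26.6, 47.9 and 65.0 FPKM in untreated tumors and 1.04, 0.844 and 0.736 FPKM in brain. Igfbp3, a binding protein of insulin-like growth factors, had 20.7, 15 and 7.44 FPKM in 200 µg tumors, 37.0, 34.7 and 25.7 FPKM in untreated tumors and 2.75, 2.60 and 3.90 FPKM in brain. In both genes the 200 µg values lay between brain and untreated tumors without overlap, and neither 200 µg minus untreated difference was called (adjusted p = 0.196 for Hspg2 and 0.0781 for Igfbp3).

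Among the blood-brain barrier genes, 7 of 15 were higher and 3 lower than in brain at 200 µg, with a median of 0.00. Over all genes 34.1% were higher and 27.6% lower, so this share of calls was near the background. Under median-of-ratios scaling 6 were higher and 6 lower, and without 200 µg replicate 2 there were 6 higher and 5 lower. Cldn5, the main claudin of brain endothelium, had 25.9, 34.0 and 17.7 FPKM in 200 µg tumors, 44.1, 33.0 and 29.4 FPKM in untreated tumors and 30.5, 23.6 and 21.8 FPKM in brain, and the groups overlapped. The drug efflux pumps Abcg2 and Abcc4 were higher in 200 µg tumors than in both references. Abcg2 had 8.53, 6.25 and 9.23 FPKM at 200 µg, 4.04, 3.62 and 3.16 FPKM untreated and 3.24, 2.03 and 3.45 FPKM in brain. Its 200 µg minus untreated difference was 0.96 ± 0.206 (adjusted p = 0.0396) and that of Abcc4 was 0.70 ± 0.163 (adjusted p = 0.0488). Against brain, Abcc4 changed sign with plain FPKM sums (-0.27, against 1.48). The calls against untreated tumors were lost without 200 µg replicate 1 (adjusted p = 0.150 for Abcg2 and 0.176 for Abcc4). Hypoxia and glycolysis genes were mixed, with 9 of 23 higher and 3 lower than in brain (8 and 5 under median-of-ratios scaling) and a median of 0.32, against 0.74 untreated. These 12 calls of 23 compare with 61.7% called over all genes. Slc2a1, the glucose transporter of the barrier and of hypoxic cells, had 61.4, 77.1 and 104 FPKM in 200 µg tumors, 226, 198 and 163 FPKM in untreated tumors and 34.5, 33.3 and 17.1 FPKM in brain. Its values did not overlap between any groups, and the 200 µg minus untreated difference of -1.29 was not called (adjusted p = 0.172).

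Of 8 genes of the VEGF axis tested between 200 µg and untreated tumors, 1 was called, the co-receptor Nrp2. Over all genes 2.83% were called. Of 8 tested against brain, 3 were higher and 1 lower at 200 µg, and with plain FPKM sums 0 were called. Over all genes 34.1% were higher and 27.6% lower, so these counts were near or under the background. Vegfa (chr17:46016993-46032369, mm10), the ligand the antibody binds, had 62.8, 53.1 and 60.4 FPKM in 200 µg tumors, 68.6, 55.6 and 37.7 FPKM in untreated tumors and 21.6, 15.5 and 15.8 FPKM in brain. The tumor groups overlapped, both lay above brain, and the 200 µg minus brain difference was 1.69 ± 0.183 (adjusted p = 3.67e-04). Pgf, a ligand of FLT1, was higher than in brain by 1.36 ± 0.289 (adjusted p = 0.00701). Vegfb, a further FLT1 ligand, was lower by -1.12 ± 0.360 (adjusted p = 0.0344, and 0.106 without 200 µg replicate 1), and some of its transcripts were joined to Dnajc4. The receptors Flt1 and Kdr differed from brain by -0.09 and 0.17 and the co-receptor Nrp1 by -0.08, none of them called. Flt1 had 6.52, 5.38 and 4.84 FPKM in 200 µg tumors, 6.37, 6.29 and 5.14 FPKM in untreated tumors and 5.55, 6.08 and 6.32 FPKM in brain. Kdr had 4.11, 2.72 and 1.02 FPKM at 200 µg, 5.12, 1.76 and 2.59 FPKM untreated and 2.23, 1.60 and 2.18 FPKM in brain, with every group overlapping. Flt4, the lymphatic VEGF receptor, did not reach the filter on low values here and had 1.03, 0.819 and 0.201 FPKM at 200 µg, 1.90, 1.32 and 1.57 FPKM untreated and 0.533, 0.389 and 0.504 FPKM in brain. Vegfd, a ligand of FLT4, differed from brain by -0.66 and was not called. Nrp2, a co-receptor for VEGF-C and semaphorins, had 13.3, 10.4 and 12.4 FPKM in 200 µg tumors, 5.86, 4.32 and 5.87 FPKM in untreated tumors and 2.02, 4.52 and 3.04 FPKM in brain. The 200 µg values stood above all others, with a 200 µg minus untreated difference of 1.04 ± 0.20 (adjusted p = 0.0289) that missed the threshold without 200 µg replicate 1 (0.117).

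Between 200 µg and untreated tumors, 415 of 14653 genes (2.83%) were called, 298 higher (2.03%) and 117 lower (0.798%), from a fit over all 12 tumor libraries. At an unadjusted p under 0.05 there were 3376. The count rested on single libraries. It was 8 without 200 µg replicate 1, 34 without replicate 2 and 227 without replicate 3. It was 72, 62 and 40 without untreated replicate 1, 2 and 3. It was 261 and 1176 without 100 µg replicates 1 and 3, and 257 and 992 without 50 µg replicates 2 and 3. A plain sum of FPKM called 84 genes, 33 higher and 51 lower. The 200 µg libraries and 100 µg replicate 3 had the lowest shares of genes in pieces. A term for these 4 libraries gave 35 calls, 8 of them among the 415. Only 100 µg replicate 3, tagged as 200 µg, differed in this term from other libraries of its group. All values with the term therefore rest on that library. With every tumor library left out in turn, 7 genes kept their call. Of these Cp, Timp2 and Wls, a carrier of WNT ligands that was singled out after its value of 1.30 was seen, did not share transcripts or sequence with other genes.

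Whether a called gene lay nearer to brain at 200 µg was read from the tumors titled as given 50 or 100 µg. By title, they share no library with the 200 µg change. A gene whose mean there was 1 or more log2 units above or below brain counted as toward where 200 µg moved it against that gap, and as away where 200 µg moved it further. Of the 415 called genes, 95 moved toward brain, 117 moved away and 203 lay within 1 unit of brain. In the 100 µg libraries, 344, 351 and 389 of these genes already lay beyond every untreated library in the 200 µg direction. This gap could therefore hold part of the change, which can make genes count as away or near. With the gap taken from untreated tumors, whose libraries enter the change, 149 moved toward and 81 away. The balance thus turned with the reference. Among 4532 tested genes above brain, 2.29% were called higher and 1.1% lower at 200 µg (104 and 50 genes). Among 1962 genes below brain, 2.29% were called higher and 0.663% lower (45 and 13 genes). Among the 8159 genes near brain, the shares were 1.83% and 0.662%. Higher calls outnumbered lower ones on every side of brain in this fit, but plain FPKM sums turned the balance over all genes to 33 higher and 51 lower, and grouping by the agent tag gave 143 higher and 124 lower. The estimates of all tested genes above brain were split, 2239 higher and 2293 lower, with a median of 0.00. Toward and away counts without a 200 µg library were 2 and 2 (replicate 1), 6 and 13 (replicate 2), and 56 and 61 (replicate 3), and without an untreated library 16 and 24 (replicate 1), 12 and 23 (replicate 2), and 8 and 13 (replicate 3).

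**Figure D2:**
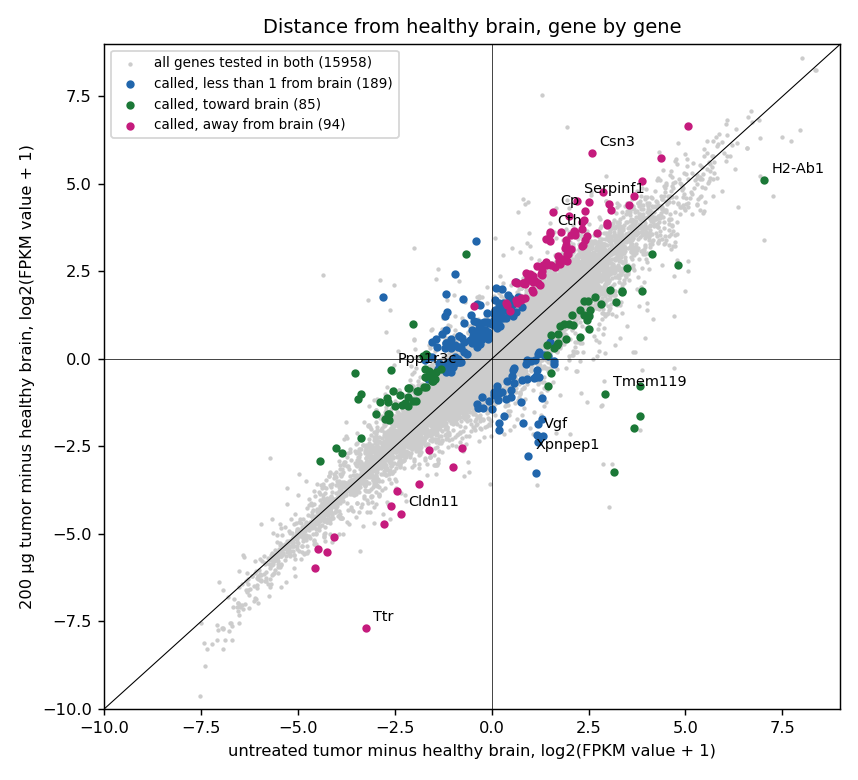
Each point is a gene tested against brain in both tumor groups (15958 genes), with the untreated minus brain difference on the x axis and the 200 µg minus brain difference on the y axis, both in log2(FPKM value + 1) and both using the same 3 brain libraries. Genes called between 200 µg and untreated tumors are colored as toward brain (85), away from brain (94) or less than 1 unit from brain (189); the line marks equal distance from brain, Csn3 and Cp lie above it and Tmem119 and Ttr below it.

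Genes that moved away from brain included secreted and metabolic genes that were low in brain, raised in untreated tumors and higher again at 200 µg. Cp (chr3:19957054-20009145), the copper ferroxidase ceruloplasmin that loads iron onto transferrin, had 43.6, 38.4 and 36.6 FPKM in 200 µg tumors, 5.41, 3.94 and 8.27 FPKM in untreated tumors and 1.30, 1.18 and 1.17 FPKM in brain. No groups overlapped. The 200 µg minus brain difference was 4.19 ± 0.142 and the untreated minus brain difference 1.59. The 200 µg minus untreated difference of 2.60 ± 0.236 (adjusted p = 0.00181) held without any single library (adjusted p up to 0.0156). Tumors given 100 µg had 22.5, 17.9 and 27.6 FPKM of Cp, and tumors given 50 µg 6.58, 6.70 and 6.35 FPKM. All 100 µg libraries lay above untreated tumors, not only replicate 3, which resembled the 200 µg assemblies and was tagged as 200 µg. With the term for those 4 libraries the Cp difference was 2.17 (adjusted p = 0.0848). Trf, transferrin, was also called higher at 200 µg than untreated, but its untreated and brain values overlapped. It had 572, 490 and 200.0 FPKM in 200 µg tumors, 108, 96.2 and 96.7 FPKM in untreated tumors and 94.8, 85.1 and 100.4 FPKM in brain. The 200 µg minus untreated difference was 1.92 (adjusted p = 0.0369, and 0.143 without 200 µg replicate 1). Trf overlaps another annotated gene and has near copies. Cp and Trf were the 2 genes called among 12 tested on an iron handling list, where 2.83% of all genes were called.

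Serpinf1 (chr11:75409769-75422701), which encodes PEDF, a secreted inhibitor of angiogenesis, had 76.7, 77.9 and 57.3 FPKM in 200 µg tumors, 12.5, 15 and 11.9 FPKM in untreated tumors and 1.25, 1.78 and 3.67 FPKM in brain. Jag1 (chr2:137081456-137116644), a Notch ligand, had 40.4, 27.7 and 18.5 FPKM in 200 µg tumors, 5.88, 6.18 and 5.53 FPKM in untreated tumors and 0.946, 2.09 and 1.37 FPKM in brain. Csn3, kappa-casein, known from milk, had 75.6, 111 and 26.6 FPKM in 200 µg tumors and 5.60, 4.73 and 5.77 FPKM in untreated tumors, and was listed at 0, 0 and 0.179 FPKM in brain. In these 3 genes each 200 µg value exceeded each untreated value, which exceeded each brain value. The 200 µg minus untreated differences were 2.33 ± 0.399 for Serpinf1 (adjusted p = 0.0211), 2.06 ± 0.295 for Jag1 (0.0129) and 3.28 ± 0.533 for Csn3 (0.0194). With a tumor library left out these adjusted p-values reached 0.0919 and 0.0864 for Serpinf1 and Csn3 without 200 µg replicate 1, and 0.0560 for Jag1 without 200 µg replicate 2. Under the term for the 4 libraries with the fewest genes in pieces, Serpinf1 and Csn3 stayed called (adjusted p = 0.00201 and 0.0415). Slc27a6, a fatty acid transporter, had 18.7, 15.5 and 16.6 FPKM in 200 µg tumors and 2.94, 2.91 and 3.83 FPKM in untreated tumors, and 0, 0 and 0.187 FPKM in brain, with a 200 µg minus untreated difference of 2.09 ± 0.272 (adjusted p = 0.00912, and 0.0540 without 200 µg replicate 1). Lbhd2, of which less is known, had 17.4, 26.2 and 5.33 FPKM in 200 µg tumors and was listed at 0, 2.16 and 0 FPKM in untreated tumors and at 0 in brain (adjusted p against untreated 0.0458, and 0.156 without 200 µg replicate 1). Of 14 D-type cyclin and G1 genes, 12 were higher than in brain (5 with plain FPKM sums), where 34.1% of all genes were. Ccnd2 (chr6:127125162-127152193), a cyclin of the G1 phase, was the gene called among these 14 against untreated tumors, where 2.83% of all genes were called. It had 163, 143 and 129 FPKM in 200 µg tumors, 56.3, 48.4 and 49.8 FPKM in untreated tumors and 11.8, 15.2 and 12 FPKM in brain, with a 200 µg minus untreated difference of 1.47 ± 0.183 (adjusted p = 0.00908, and 0.0511 without 200 µg replicate 1).

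**Figure D3:**
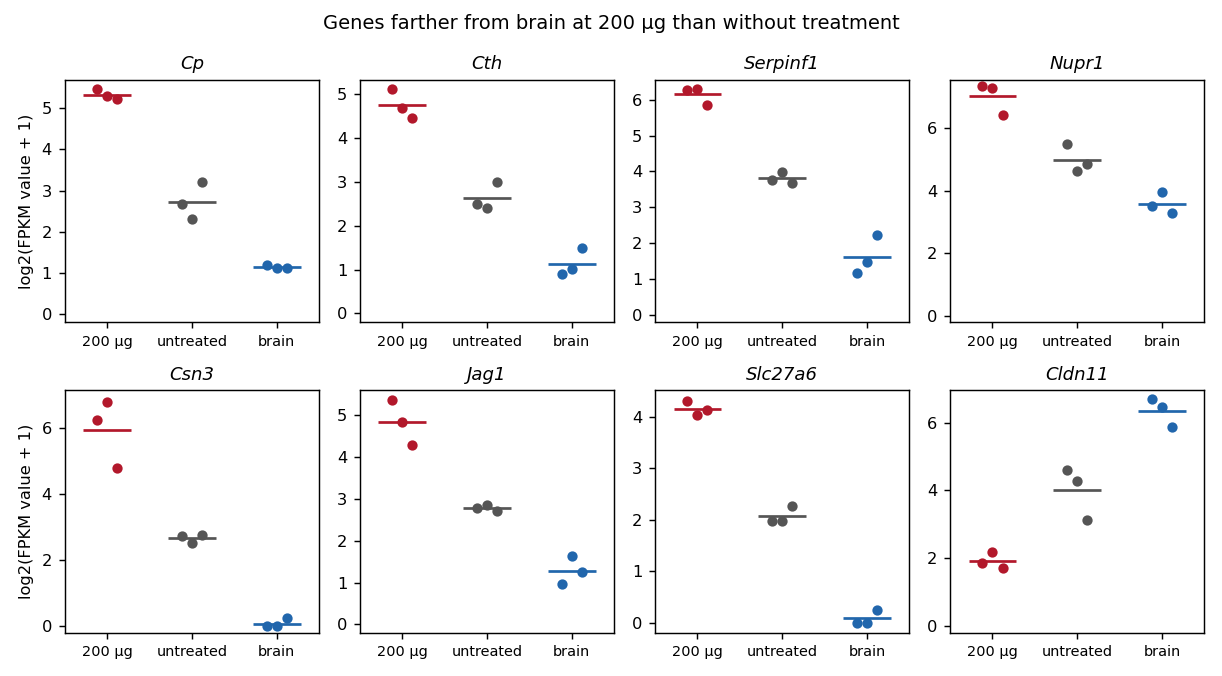
log2(FPKM value + 1) in each of the 3 libraries of the 200 µg tumors, untreated tumors and healthy brain for 8 genes that moved away from brain; bars are group means. In 7 genes the 200 µg points lie above both other groups, and Cldn11 lies below them at 2.60, 3.59 and 2.25 FPKM.

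Fewer genes moved away by falling further below brain. Cldn11 (chr3:31149920-31164324), the claudin of myelin, had 2.60, 3.59 and 2.25 FPKM in 200 µg tumors, 23.4, 18.5 and 7.68 FPKM in untreated tumors and 103, 86.5 and 57.5 FPKM in brain. Mag, a myelin adhesion protein, had 0.932, 0.884 and 1.03 FPKM in 200 µg tumors, 3.88, 2.85 and 2.30 FPKM in untreated tumors and 74.2, 67.6 and 56.8 FPKM in brain. Both were without overlap and were the 2 genes called among 10 tested on the myelin list, with 200 µg minus untreated differences of -2.09 ± 0.453 for Cldn11 (adjusted p = 0.0402) and -1.02 ± 0.226 for Mag (0.0422). Neither call held without 200 µg replicate 1 (adjusted p = 0.142 and 0.150). Over all genes 2.83% were called between 200 µg and untreated tumors. The summed level of the whole myelin list was 96.0 to 105 FPKM in 200 µg tumors, 147 to 257 FPKM in untreated tumors and 931 to 990 FPKM in brain. Ttr, transthyretin, a secretory product of the choroid plexus, was listed at 0 in all 200 µg libraries and had 49.6, 44.2 and 3.54 FPKM in untreated tumors and 565, 11.3 and 1259 FPKM in brain. Its call between 200 µg and untreated tumors (adjusted p = 0.0364) was lost without 200 µg replicate 1 (0.126). The choroid plexus list summed to 2.60 to 3.66 FPKM in 200 µg tumors, 5.03 to 51.2 FPKM in untreated tumors and 16.6 to 1302 FPKM in brain, and Kl, Folr1, Kcne2 and Otx2, defining genes of that tissue, were listed at 0 in all 200 µg and all untreated libraries. The list sum includes Ttr itself and so does not speak for the list. Of 2 list genes tested between the tumor groups, the other had an estimate of 0.94 and was not called. The part of choroid plexus tissue in the Ttr difference was not tested.

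The list with the most calls between 200 µg and untreated tumors was that of ATF4 and the amino acid response, a program in which the transcription factor ATF4 raises amino acid transporters, biosynthetic enzymes and its own partners. Of 28 genes tested against brain, 26 were higher and 2 lower in 200 µg tumors, with a median of 2.54. In untreated tumors 23 were higher and 3 lower, with a median of 1.62 over the same genes. Against untreated tumors, 7 of 26 were higher and 0 lower at 200 µg, with a median of 0.70, and 24 estimates were positive, where 2.83% of all genes were called and the median of all genes was 0.04. The list was drawn up with earlier results on these samples known, so its count is no independent evidence of a direction. The 7 calls fell to 0 without 200 µg replicate 1, 2 without replicate 2, and 2, 3 and 2 without untreated replicate 1, 2 and 3, and rose to 11 without 50 µg replicate 3. They fell to 0 with the term for the 4 libraries with the fewest genes in pieces and 1 with plain FPKM sums. The median stayed at 0.65 to 0.77 with a library left out and was 0.78 with that term and 0.68 with plain sums.

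Atf4 itself had 480.5, 382 and 484 FPKM in 200 µg tumors, 211, 192 and 232 FPKM in untreated tumors and 47.7, 59.9 and 69.4 FPKM in brain. The groups did not overlap, yet the 200 µg minus untreated difference of 1.07 was not called (adjusted p = 0.0731). Atf5 (chr7:44812256-44816658), a related transcription factor, had 169, 141 and 147 FPKM in 200 µg tumors, 59.6, 50.7 and 44.6 FPKM in untreated tumors and 14.3, 9.74 and 9.58 FPKM in brain, a 200 µg minus untreated difference of 1.55 ± 0.335 (adjusted p = 0.0402). Nupr1 (chr7:126623249-126630861), a stress-induced chromatin protein, had 162, 157 and 84.0 FPKM in 200 µg tumors, 43.7, 23.7 and 28.1 FPKM in untreated tumors and 10.4, 14.4 and 8.74 FPKM in brain, a difference of 2.03 ± 0.411 (adjusted p = 0.0345). Both stood lowest in brain and highest at 200 µg in every library.

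The enzymes and transporters of the list differed in where brain lay. Cth (chr3:157894248-157925077), which makes cysteine from cystathionine, had 33.8, 24.8 and 20.9 FPKM in 200 µg tumors, 4.68, 4.32 and 6.96 FPKM in untreated tumors and 0.854, 1.02 and 1.79 FPKM in brain, a 200 µg minus untreated difference of 2.12 ± 0.258 (adjusted p = 0.00908). Asns (chr6:7675169-7693254), which makes asparagine, had 95.4, 95.8 and 120.2 FPKM in 200 µg tumors, 55.1, 58.6 and 47.4 FPKM in untreated tumors and 32.0, 40.5 and 23.4 FPKM in brain (0.94 ± 0.183, adjusted p = 0.0306). For Cth and Asns untreated tumors were already above brain. Slc7a11 (chr3:49892526-50443614), the cystine importer, had 11, 5.95 and 6.40 FPKM in 200 µg tumors, 1.19, 1.59 and 1.63 FPKM in untreated tumors and 2.38, 2.02 and 3.44 FPKM in brain (1.79 ± 0.320, adjusted p = 0.0239). Slc1a4 (chr11:20302180-20332713), a transporter of serine and alanine, had 31.7, 30.9 and 29.9 FPKM in 200 µg tumors, 12.1, 13.2 and 11.9 FPKM in untreated tumors and 14.8, 14.2 and 13.9 FPKM in brain (1.25 ± 0.145, adjusted p = 0.00908). Vldlr (chr19:27216484-27254231), a lipoprotein receptor, had 13.6, 12.9 and 14.8 FPKM in 200 µg tumors, 3.70, 4.80 and 4.11 FPKM in untreated tumors and 6.64, 8.82 and 9.93 FPKM in brain (1.51 ± 0.237, adjusted p = 0.0172). These 3 genes lay below brain in untreated tumors and above brain at 200 µg, in every library. Without 200 µg replicate 1 the adjusted p was 0.0511 for Cth and Slc1a4, 0.101 for Slc7a11, 0.0774 for Vldlr, 0.136 for Nupr1 and 0.150 for Atf5, and that of Asns was 0.120 without untreated replicate 3. Against brain, Slc7a11 changed sign with plain FPKM sums (-0.09, against 1.26), and the call of Vldlr against brain (0.65, adjusted p = 0.0206) was lost without 200 µg replicate 1 (0.0618). The 2 list genes lower than in brain were Cbs, the enzyme before Cth in cysteine synthesis, at -1.60, and Slc7a3, a cationic amino acid transporter, at -1.49. Among 20 aminoacyl tRNA synthetase genes, which charge tRNAs and include further ATF4 targets, 17 were higher than in brain and 0 lower (7 and 0 with plain FPKM sums). Against untreated tumors 0 were higher and 1 lower, Vars, with a difference of -0.83 (adjusted p = 0.0472, and 0.152 without 200 µg replicate 2). Over all genes 2.03% were called higher and 0.798% lower there.

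**Figure D4:**
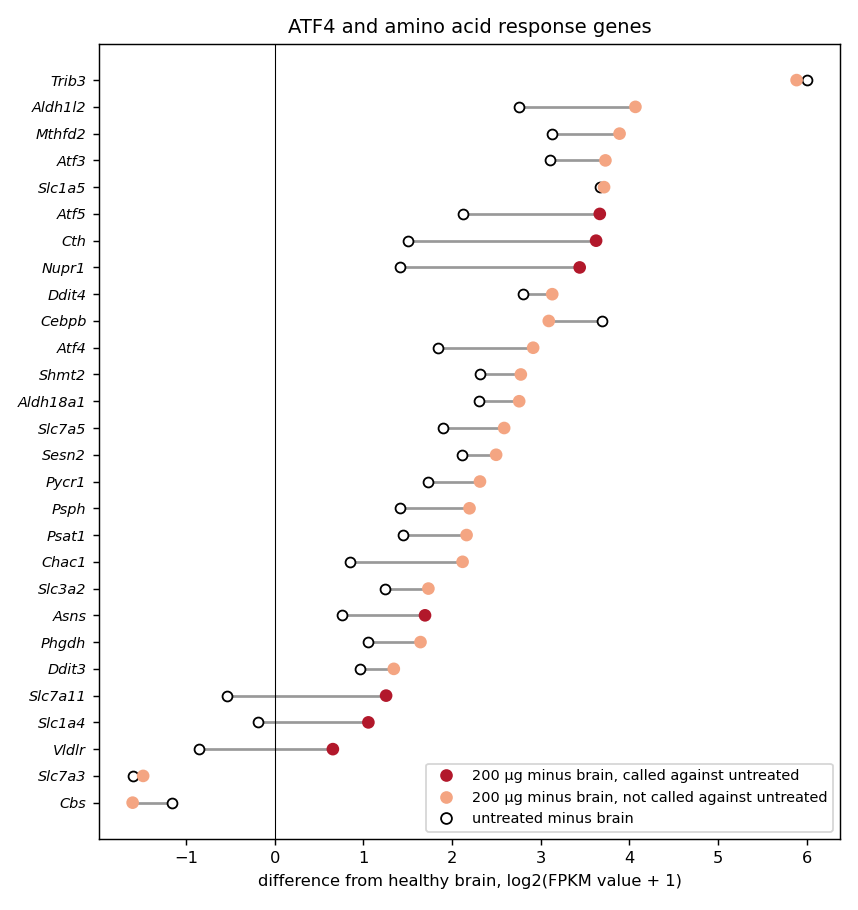
Difference from healthy brain, in log2(FPKM value + 1), of the 28 ATF4 and amino acid response genes tested in both tumor groups; filled points are 200 µg tumors (dark where called against untreated tumors) and open points are untreated tumors. The 200 µg point lies to the right of the untreated point for 25 genes, and those of Trib3, Cebpb and Cbs lie to the left.

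ATF4 binds composite elements joining a C/EBP site to an ATF site, for which TGATGNAA was searched on both strands in the windows from 250 bases before to 50 bases after RefSeq gene starts (GRCm38.p6). No other motif was searched. Of 25 list genes with a window, 10 held a match, among them Asns, Nupr1, Slc1a4, Slc7a11 and Vldlr of the 7 called genes. Of all 27025 genes with a window, 4.51% held a match. Atf5 had none in its windows, and Cth had no window in the table, so 6 of the 7 could be searched. The list was drawn up as genes of the ATF4 response, so its share of matches is no independent evidence that ATF4 acted in these tumors. A match is a description of letters and not a bound site. The windows of 4 called genes are printed 5′ to 3′ on the gene's strand, with the matches in capitals, since all 4 genes were higher at 200 µg than in untreated tumors.
Slc7a11 (chr3:50443564-50443863, minus strand): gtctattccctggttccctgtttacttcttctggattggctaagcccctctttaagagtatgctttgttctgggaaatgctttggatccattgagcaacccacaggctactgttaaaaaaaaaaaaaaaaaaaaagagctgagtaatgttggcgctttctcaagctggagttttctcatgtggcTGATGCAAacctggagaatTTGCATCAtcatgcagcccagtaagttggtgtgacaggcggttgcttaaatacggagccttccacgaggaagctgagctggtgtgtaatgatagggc
Asns (chr6:7693160-7693459, minus strand): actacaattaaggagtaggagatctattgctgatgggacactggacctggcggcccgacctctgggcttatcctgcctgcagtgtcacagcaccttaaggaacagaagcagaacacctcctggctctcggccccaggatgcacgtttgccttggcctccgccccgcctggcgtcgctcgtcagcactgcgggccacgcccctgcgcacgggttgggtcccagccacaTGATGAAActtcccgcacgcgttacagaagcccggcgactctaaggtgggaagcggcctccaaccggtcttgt
Nupr1 (chr7:126625421-126625720, minus strand): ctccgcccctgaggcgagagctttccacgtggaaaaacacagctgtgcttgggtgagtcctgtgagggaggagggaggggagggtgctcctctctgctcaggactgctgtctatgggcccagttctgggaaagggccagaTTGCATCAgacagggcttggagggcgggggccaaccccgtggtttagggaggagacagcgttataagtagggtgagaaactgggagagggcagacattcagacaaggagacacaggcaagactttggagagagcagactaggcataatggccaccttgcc
Slc1a4 (chr11:20332664-20332963, minus strand): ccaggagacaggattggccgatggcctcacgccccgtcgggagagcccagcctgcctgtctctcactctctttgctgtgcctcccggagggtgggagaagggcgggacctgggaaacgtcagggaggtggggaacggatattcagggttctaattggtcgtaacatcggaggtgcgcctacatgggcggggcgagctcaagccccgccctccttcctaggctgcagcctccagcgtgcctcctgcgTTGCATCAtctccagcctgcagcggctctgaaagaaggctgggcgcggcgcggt
Slc7a11 held the motif on both strands and the other 3 genes held a single match, and the letters TTGCATCA or its reverse complement TGATGCAA recurred in Slc7a11, Nupr1 and Slc1a4, while the match in Asns was TGATGAAA.

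Genes that moved toward brain came from above and from below it. Tmem119 (chr5:113793729-113800516), a membrane protein of microglia, had 4.03, 4.47 and 7.66 FPKM in 200 µg tumors, 52.8, 94.0 and 162 FPKM in untreated tumors and 13.6, 12.6 and 8.44 FPKM in brain. The 200 µg values lay under brain and the untreated values above it, with no overlap. The 200 µg minus untreated difference was -3.92 ± 0.512 (adjusted p = 0.00912, and 0.0540 without 200 µg replicate 1), and the 200 µg minus brain difference of -0.99 (adjusted p = 0.0224) was lost without that library (0.0757). At 50 µg Tmem119 had 149, 122 and 63.6 FPKM and at 100 µg 8.26, 4.99 and 18.4 FPKM. With the term for the 4 libraries with the fewest genes in pieces its difference from untreated tumors was -5.31 (adjusted p = 0.0399). It was the microglia list's gene called among 9 tested between the tumor groups, where 2.83% of all genes were called. The summed level of that list was 50.0 to 77.9 FPKM in 200 µg tumors, 149 to 254 FPKM in untreated tumors and 110.1 to 124 FPKM in brain. That sum includes Tmem119 itself and so does not speak for the list. In untreated tumors 7 of 12 list genes were lower than in brain and 2 higher, with a median of -0.95.

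H2-Ab1 (chr17:34257689-34269419), the beta chain of an MHC class II molecule, had 76.7, 88.5 and 84.3 FPKM in 200 µg tumors, 370.3, 163 and 521 FPKM in untreated tumors and 1.23, 1.91 and 1.20 FPKM in brain. It remained far above brain (5.11 ± 0.172) while lying under every untreated value (-1.91 ± 0.374, adjusted p = 0.0306, and 0.115 without 200 µg replicate 1). Its partner H2-Aa had 92.6, 105 and 103 FPKM at 200 µg and 228, 72.9 and 215 FPKM untreated, which overlapped, and was not called. All 7 class II estimates between the tumor groups were negative, with a median of -0.61 and 1 call, where 2.83% of all genes were called. Smpdl3b, a lipid-modifying enzyme of macrophages, had 6.00, 4.38 and 9.85 FPKM in 200 µg tumors, 14.8, 19.5 and 23.3 FPKM in untreated tumors and 0, 2.80 and 0.957 FPKM in brain (-1.42, adjusted p = 0.0434, and 0.153 without 200 µg replicate 1). Glod5, a glyoxalase-domain gene, was listed at 0, 0 and 3.63 FPKM in 200 µg tumors, at 9.53, 17.6 and 20.0 FPKM in untreated tumors and at 0 in brain (adjusted p = 0.0404, and 0.154 without 200 µg replicate 1).

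Other genes were below brain in untreated tumors and rose at 200 µg. Timp2 (chr11:118301069-118355740), an inhibitor of matrix metalloproteinases, had 24.4, 27.8 and 32.4 FPKM in 200 µg tumors, 10.4, 11.2 and 9.84 FPKM in untreated tumors and 52.1, 70.0 and 53.6 FPKM in brain. The groups did not overlap, the 200 µg minus untreated difference was 1.34 ± 0.167 (adjusted p = 0.00908), and it held without any single library (adjusted p up to 0.0467). It was still lower than in brain by -1.03 ± 0.191 (adjusted p = 0.00398). Mmd2, a membrane protein of the PAQR family, had 19.7, 18.4 and 10.2 FPKM in 200 µg tumors, 6.34, 4.53 and 3.16 FPKM in untreated tumors and 33.4, 32.3 and 40 FPKM in brain. Fnbp1l, a regulator of actin at curved membranes, had 14.4, 15.4 and 10.1 FPKM in 200 µg tumors, 3.47, 5.93 and 4.42 FPKM in untreated tumors and 21.2, 26.5 and 24.3 FPKM in brain. Mmd2 and Fnbp1l lay between untreated tumors and brain in every library, with 200 µg minus untreated differences of 1.58 (adjusted p = 0.0376) and 1.36 (0.0173), which without 200 µg replicate 1 had adjusted p = 0.149 and 0.0830.

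**Figure D5:**
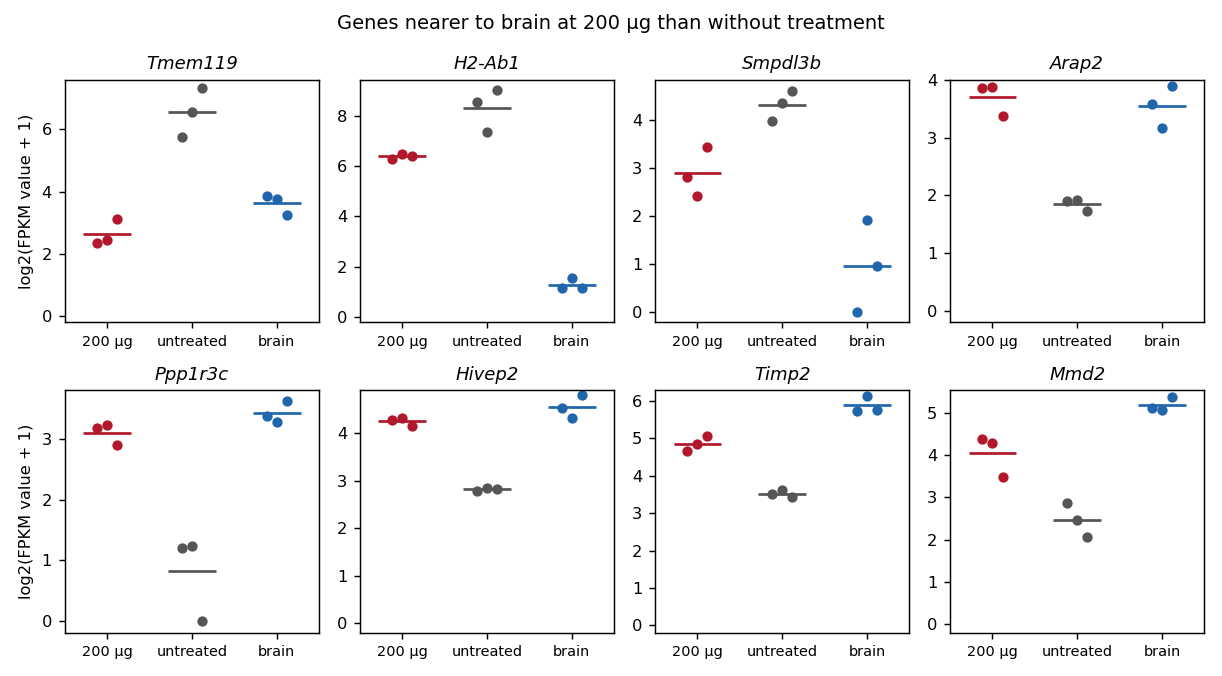
log2(FPKM value + 1) in each of the 3 libraries of the 200 µg tumors, untreated tumors and healthy brain for 8 genes that moved toward brain; bars are group means. Tmem119, H2-Ab1 and Smpdl3b lie under untreated tumors at 200 µg, the other 5 lie above them, and Arap2 overlaps brain at 13.5, 13.8 and 9.34 FPKM.

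At 200 µg, 78 of the 415 called genes lay within 0.5 log2 units of brain, and 112 of the same genes lay that close in untreated tumors. Over all 14653 tested genes these numbers were 4380 and 4453. Of the 95 genes that moved toward brain, 20 came within 0.5 units of it. Arap2 (chr5:62602445-62766159), a GTPase-activating protein of adhesion turnover, had 13.5, 13.8 and 9.34 FPKM in 200 µg tumors, 2.73, 2.76 and 2.31 FPKM in untreated tumors and 11, 8.03 and 13.9 FPKM in brain. Ppp1r3c (chr19:36731731-36736653), which targets a phosphatase to glycogen, had 8.06, 8.40 and 6.49 FPKM in 200 µg tumors, 1.31, 1.36 and 0 FPKM in untreated tumors and 9.41, 8.69 and 11.3 FPKM in brain. Socs5 (chr17:87107679-87137839), a suppressor of cytokine signaling, had 25.8, 28.8 and 23.9 FPKM in 200 µg tumors, 7.30, 7.37 and 6.95 FPKM in untreated tumors and 20.6, 25.0 and 28.5 FPKM in brain. In Arap2 and Socs5 the 200 µg values overlapped brain and lay above every untreated value, and those of Ppp1r3c lay just under brain. The differences from untreated tumors were 1.86 ± 0.242 for Arap2 (adjusted p = 0.00912), 2.29 ± 0.364 for Ppp1r3c (0.0174) and 1.72 ± 0.253 for Socs5 (0.0132), and without 200 µg replicate 1 the adjusted p was 0.0540, 0.0821 and 0.0640. Hivep2, a zinc finger transcription factor, behaved alike at 18.3, 19.1 and 16.9 FPKM in 200 µg tumors, 5.94, 6.19 and 6.10 FPKM in untreated tumors and 22.1, 19.2 and 26.9 FPKM in brain (1.43, adjusted p = 0.0118, and 0.0623 without 200 µg replicate 1).

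Socs5, Cavin2, Tmem150a and Rpl11 lay less than 1 unit from brain in tumors given 50 or 100 µg and so counted as neither toward nor away. Cavin2, a coat protein of caveolae, had 7.59, 7.08 and 2.96 FPKM in 200 µg tumors, 1.03, 0 and 0.923 FPKM in untreated tumors and 4.06, 2.82 and 4.11 FPKM in brain. Tmem150a, which helps place a lipid kinase at the plasma membrane, had 19.6, 16.9 and 18.4 FPKM in 200 µg tumors, 8.52, 1.68 and 6.39 FPKM in untreated tumors and 15, 17.3 and 11.1 FPKM in brain. Rpl11, a ribosomal protein, came from the other side, at 107, 127 and 139 FPKM in 200 µg tumors, 443, 409.8 and 348 FPKM in untreated tumors and 253, 157 and 55.1 FPKM in brain, where the brain libraries themselves spread widely. Without 200 µg replicate 1 the adjusted p against untreated tumors of these 3 genes was 0.115, 0.155 and 0.110, against 0.0284, 0.0466 and 0.0258 with all libraries. Their 200 µg minus brain differences of 0.49, 0.34 and -0.07 were not called, which does not show that the levels were equal. Fgf1, an angiogenic growth factor made by neurons and the gene called among 10 tested on a list of other angiogenic ligands, had 3.48, 2.56 and 2.06 FPKM in 200 µg tumors, 0.257, 0.443 and 0.340 FPKM in untreated tumors and 7.99, 6.35 and 8.76 FPKM in brain (200 µg minus untreated 1.44 ± 0.229, adjusted p = 0.0174, and 0.0830 without 200 µg replicate 1). Over all genes 2.83% were called between these tumor groups.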

How the data were processed

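The series holds RNA-seq of 15 samples, 3 in each of 5 groups. Reads were aligned with STAR and transcripts assembled with Cufflinks on mm10, per the submitters' processing notes; their versions and settings are not given in the sources used here. Each deposited table holds 1 transcript assembly per library with FPKM values computed by the authors, and no read counts, so sequencing depth is known only through the coverage column. An exact 0 can be a failed estimate. Transcripts were matched to the exons of 55450 GENCODE genes with bedtools 2.31.1, and 24650 genes took up a transcript. A gene's value is the sum of FPKM weighted by the share of its exonic length covered, compared as log2(value + 1) with limma 3.58.1 in R 4.3.3 over genes with a mean of at least 1 FPKM, with Benjamini-Hochberg adjustment over all genes tested. Comparisons with brain used the 6 libraries of both groups, and 200 µg against untreated used all 12 tumor libraries. Only the fit of 200 µg tumors against brain was tested on simulated data, and the fit over 12 tumor libraries was not. Genes were marked uncertain where annotated genes overlapped, transcripts joined neighbors or sequence was copied elsewhere.

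Genes named by size were protein-coding, not uncertain and at 5 FPKM or more in the higher group: the 10 largest differences from brain each way, the 10 largest toward and the 10 largest away, the 6 largest within 0.5 of brain, up to 4 members per list, list members called against untreated tumors, and the VEGF axis. Some other list members are also given with their values. Members and lists were chosen with earlier results of these data known. A term for the 4 libraries with the fewest genes in pieces, and the scaling, gap and uncertainty alternatives of the toward and away counts, were chosen after seeing the data. Groups follow the sample titles.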

Additional observations from a re-analysis of the deposited data

Results flagged for a closer look

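Of the 415 genes called by limma between 200 µg and untreated tumors, 137 had group means on opposite sides of healthy brain. The 7 given here are the protein-coding genes among them that were not uncertain, reached a mean of 5 FPKM in a tumor group, and lay 0.5 or more from brain in both tumor groups. All share the 3 brain libraries, and every call was lost without 200 µg replicate 1.

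Slc7a11 differed by 1.79 between 200 µg and untreated tumors, with 1.26 at 200 µg and -0.54 untreated relative to brain (adjusted p = 0.0239). Vldlr differed by 1.51, with 0.65 at 200 µg and -0.85 untreated (adjusted p = 0.0172). Tmem119 differed by -3.92, with -0.99 at 200 µg and 2.93 untreated (adjusted p = 0.00912).

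Vgf, a secreted neuropeptide precursor, differed by -3.34, with -2.18 at 200 µg and 1.16 untreated (adjusted p = 0.0195). It had 14.9, 16 and 15.4 FPKM in 200 µg tumors, 79.5, 245 and 231 FPKM in untreated tumors and 83.7, 103 and 46.0 FPKM in brain. Jsrp1, a protein of the junctional sarcoplasmic reticulum, differed by -3.07, with -1.86 at 200 µg and 1.21 untreated (adjusted p = 0.0230). Cox8a, a subunit of cytochrome c oxidase, differed by -2.0002, with -1.25 at 200 µg and 0.75 untreated (adjusted p = 0.0350).

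Xpnpep1, a cytosolic aminopeptidase, differed by -3.72, with -2.79 at 200 µg and 0.93 untreated (adjusted p = 0.0434). It had 0.0151, 0.0328 and 0 FPKM in 200 µg tumors and was listed at 0 in 100 µg replicate 3, while 100 µg replicates 1 and 2 had 12.8 and 14.1 FPKM. These 4 libraries are those with the fewest genes in pieces, and with a term for them the difference was 0.13 (adjusted p = 0.949).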

How the results depend on the processing

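The count of calls between 200 µg tumors and brain was within 1.5 times the reported one under all other settings and with each library left out, except for genes that were not uncertain (6423 calls) and plain FPKM sums (5298). For untreated tumors against brain the same exceptions gave 6302 and 4774. Between 200 µg and untreated tumors, 415 calls became 267 with groups by the agent tag (113 shared with the 415), 35 with a term for the 4 libraries with the fewest genes in pieces (8 shared with the 415), 1672 in a fit of 6 libraries, 84 with plain sums (39 shared) and 213 with the replicate block (192 shared). Leaving out a library gave 8 to 1176 calls. The counts toward and away were 149 and 81 with the gap taken from untreated tumors, which turns the balance of 95 and 117, 35 and 62 with a gap of at least 2, 17 and 27 with plain sums, 42 and 69 with the replicate block, and 8 and 11 with the 4-library term. With a library left out they ran from 2 to 107 toward and from 2 to 131 away. Deviations from the group mean in same-numbered replicates of 200 µg and untreated tumors had correlations of 0.08, -0.055 and 0.026. Those of different-numbered replicates ran from -0.126 to 0.097. Such small correlations of few libraries cannot settle whether the numbers pair the samples.

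With plain sums Abcc4 changed sign against brain (-0.27 at 200 µg and -0.62 untreated), as did Slc7a11 at 200 µg (-0.088), and Zbtb46 against untreated tumors (-0.88). Xpnpep1 changed sign against untreated tumors with the 4-library term (0.13). The cause was not tested. Depth per library is unknown beyond coverage, and genes listed at 0 in a library limit every value built on them.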

Other observations

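Libraries at lower doses were read for the 415 genes called between 200 µg and untreated tumors. In the 50 µg libraries, 135, 230 and 254 of them lay beyond every untreated library in the direction of the 200 µg change. In the 100 µg libraries these numbers were 344, 351 and 389, the last in replicate 3, which was tagged as 200 µg. The share of all tested genes that lay so was not counted. How far these numbers exceed it, if at all, is therefore not known. The genes were chosen on the 200 µg and untreated libraries, and the untreated libraries are shared, so the counts are a description.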
